A study of Sus scrofa with 12 samples.

Results

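The testis of Hezuo (HZ) boars, a Chinese native pig breed that matures early, was compared between 30 days (Ha) and 120 days of age (Hb) by small RNA sequencing. The members are all miRNAs listed in the deposited table with at least 1 count in the 6 HZ libraries, which left 1441 of 1452 miRNAs. Each age had 3 libraries, so 6 of the 12 libraries of the series entered the comparison, and the other 6 came from Landrace (LC) boars of the same ages (La and Lb). No animal received a treatment. The boars were castrated, and small RNA was prepared from whole testis. The methods mention pooled samples, and nothing in the labels ties a library to 1 boar, so the p-values measure the spread between libraries only. Whole testis holds germ cells, Sertoli cells, Leydig cells, peritubular muscle and vessels, so a smaller share of one cell type and less RNA per cell cannot be told apart here.

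miRNAs are short RNAs that guide Argonaute proteins to target mRNAs, mainly through the seed (bases 2 to 8), and thereby lower the output of those mRNAs. Between the neonatal and the pubertal period the tubules of a boar testis change from cords with Sertoli cells and early germ cells to tubules in which germ cells pass through meiosis. The miR-34 and miR-449 family is known for its high level in meiotic and postmeiotic germ cells, and the X-linked miR-506 family for its preference for the testis.

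The sequences below carry the main findings. They are printed 5′ to 3′ as deposited, with T in place of U, and the capitals mark the seed. The first set shares the seed of the miR-34 and miR-449 family. Its members rose with age except ssc-miR-34a, and m0071-5p is a predicted miRNA.
ssc-miR-34c: aGGCAGTGtagttagctgattgc
miR-34-x: aGGCAGTGtaattagctgattgt
miR-449-x: tGGCAGTGtattgttagctggt
m0071-5p: aGGCAGTGtattgttagctggctgc
ssc-miR-34a: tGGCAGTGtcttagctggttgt

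The second set holds the 5 most abundant entries of the X-linked miR-506 family, all of which rose. They carry 4 seeds, since miR-507-y is miR-507-z without its last base.
miR-508-y: aCTGTCACctttttgagtaga
miR-507-z: tGATTGGCacctctttgagtgac
miR-507-y: tGATTGGCacctctttgagtga
miR-506-z: tGAATGGCgcctttctgagtaga
miR-514-y: tGATTGACacctctgttagtgga

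The third set holds predicted miRNAs. The first 4 are 19 bases long and were among the largest rises, whereas m0001-5p and m0003-5p are neighbours on the X chromosome that share their 3′ part and differ within the seed.
m0004-3p: cTCTTTGAcactgagaact
m0006-5p: tCCCCGTTactgctgacag
m0008-3p: cCAGTCAGaattcaaaacc
m0010-5p: gGAGAAGCtactctggcac
m0001-5p: tATCCAGGcaggtgctgttctct
m0003-5p: tGACCAGGcaggtgctgttctct

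The last set shows close relatives within families. The listed ssc-miR-29a-3p starts 1 base earlier than ssc-miR-29c, so their listed seeds are shifted, and both rose. ssc-miR-100 rose, and the more abundant ssc-miR-99a-5p with the same seed did not pass the test. The miR-450 pair and ssc-miR-125a fell.
ssc-miR-29a-3p: cTAGCACCatctgaaatcggtta
ssc-miR-29c: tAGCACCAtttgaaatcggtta
ssc-miR-100: aACCCGTAgatccgaacttgtg
ssc-miR-99a-5p: aACCCGTAgatccgatcttgtg
ssc-miR-450b-5p: tTTTGCAAtatgttcctgaata
ssc-miR-450c-5p: tTTTGCGAtgtgttcctaatac
ssc-miR-125a: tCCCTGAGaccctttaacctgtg

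The HZ libraries held between 6520197 and 9625398 counts on listed miRNAs. Levels are given in TPM, the deposited counts scaled to a common library total, and changes as the log2 fold change of Hb over Ha from edgeR with its standard error (SE). Hb2 had a TMM factor of 0.7173 against 0.998 to 1.235 in the other HZ libraries. The Hb libraries differed more among themselves than the Ha libraries, with a chi-square per degree of freedom of 1178 between Hb1 and Hb2, 767.2 between Hb2 and Hb3 and 417.9 between Hb1 and Hb3, against 242.6 or less between Ha libraries. The gonadal marker ssc-miR-202-5p stood at 9077 TPM or more in every library, and the pluripotency miRNAs of the miR-302 and miR-371 list summed to at most 0.539 TPM.

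At a Benjamini-Hochberg adjusted p under 0.05, 307 miRNAs rose from Ha to Hb (21.3%) and 187 fell (13.0%). With Ha1 left out 123 fell, and with Ha2 left out 119 fell, while the number that rose stayed between 227 and 367 over the single left-out libraries. By the thresholds of the study, an absolute log2 fold change above 1 with an unadjusted p under 0.05, the shares were 25.1% up and 14.4% down. Of the 353 pig-named (exist) miRNAs, 54 rose and 87 fell. Of 761 tested miRNAs named from other species (known), 19.4% rose and 11.3% fell. Of 327 tested predicted miRNAs, which the authors called from the reads of this series, 105 rose and 14 fell. The known entries took 5.67% to 7.63% of the listed counts in the Ha libraries and 12.8% or more in every Hb library, without overlap. The median log2 fold change over all tested miRNAs was 0.32, and 0.03 with the 272 entries that had no count at 1 age set to their lowest possible change.

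In the miR-34 and miR-449 family 6 of 8 listed entries rose, against 21.3% of all miRNAs, by 6.23 to 7.61 on the log2 scale. ssc-miR-34c, a germ cell miRNA whose gene MIR34C-1 lies at chr9:39280278-39280357 (Sscrofa11.1), stood at 62.0, 47.3 and 18.98 TPM in Ha1 to Ha3 and at 1218, 1732 and 11014 TPM in Hb1 to Hb3. All Hb libraries were above all Ha libraries, and Hb3 was far above the other Hb libraries. The log2 fold change was 6.90 ± 0.83 (SE, n = 3 per age, edgeR adjusted p = 3.69e-05), and without Hb3 it was 5.37 and still passed the test. miR-449-x, a member of the same family that multiciliated cells also use, stood at 14.4, 14.4 and 4.44 TPM in Ha and at 2941, 813 and 2081 TPM in Hb. Its order among the Hb libraries differed from that of ssc-miR-34c, since Hb1 was highest and Hb2 lowest, and its change was 7.47 ± 0.52 (edgeR adjusted p = 1.73e-07). miR-34-y, from the other arm of a miR-34 hairpin, followed miR-449-x with 13.9, 11.2 and 5.74 TPM in Ha and 2734, 378 and 1470 TPM in Hb. The remaining risers were miR-34-x, miR-449-y and miR-449-z, with changes of 7.07, 7.61 and 6.23.

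ssc-miR-34a, which is widely expressed outside the germ line, went the other way. Its level was 12.3, 24.1 and 7.69 TPM in Ha and 4.31, 0.872 and 5.53 TPM in Hb. The groups did not overlap and ssc-miR-34a fell by 2.02 ± 0.54 on the log2 scale (edgeR adjusted p = 0.0104), and no miR-34 or miR-449 entry fell when Ha2 was left out. Summed over the family, the level went from 80.4 ± 37.3 to 8388 ± 5964 TPM (SD, n = 3). A pair of predicted miRNAs with the same seed, m0071-5p at chr16:34347137-34347199 and m0250-5p at chr16:34347016-34347078, lie in CDC20B on the minus strand. m0071-5p had no count in Ha and a mean of 2.22 TPM in Hb, at least 7.75-fold higher, whereas m0250-5p averaged 0.208 TPM in Hb and did not pass the test.

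The X-linked miR-506 family had the largest gain in summed TPM among the lists. Of 23 listed entries, 21 rose and none fell (0 in edgeR, in DESeq2 and at an unadjusted p under 0.05), against 21.3% risers in the background, and the median change was 1.99. All of them carry names from other species. miR-508-y, the most abundant member, stood at 7684, 10517 and 3556 TPM in Ha and at 24966, 21777 and 37108 TPM in Hb. miR-507-z stood at 5737, 7945 and 3075 TPM in Ha and at 17110, 27679 and 25806 TPM in Hb. For both the groups were separate, Ha3 was the lowest library, and the changes were 2.08 ± 0.36 and 2.28 ± 0.39 (edgeR adjusted p = 0.000692 and 0.000594). miR-507-y, which may share reads with miR-507-z, rose from a mean of 3518 to 18322 TPM. miR-506-y changed by 2.74 and miR-507-x by 3.12. The summed level of the family was 18959 ± 8592 TPM in Ha and 80105 ± 15247 TPM in Hb, a 4.23-fold ratio. miR-514-y and miR-509-y list the same sequence, as do miR-507-x and miR-514-z, and miR-465-y and miR-201-y, so the members of each pair cannot be told apart by sequence and are not independent.

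**Figure D1:**
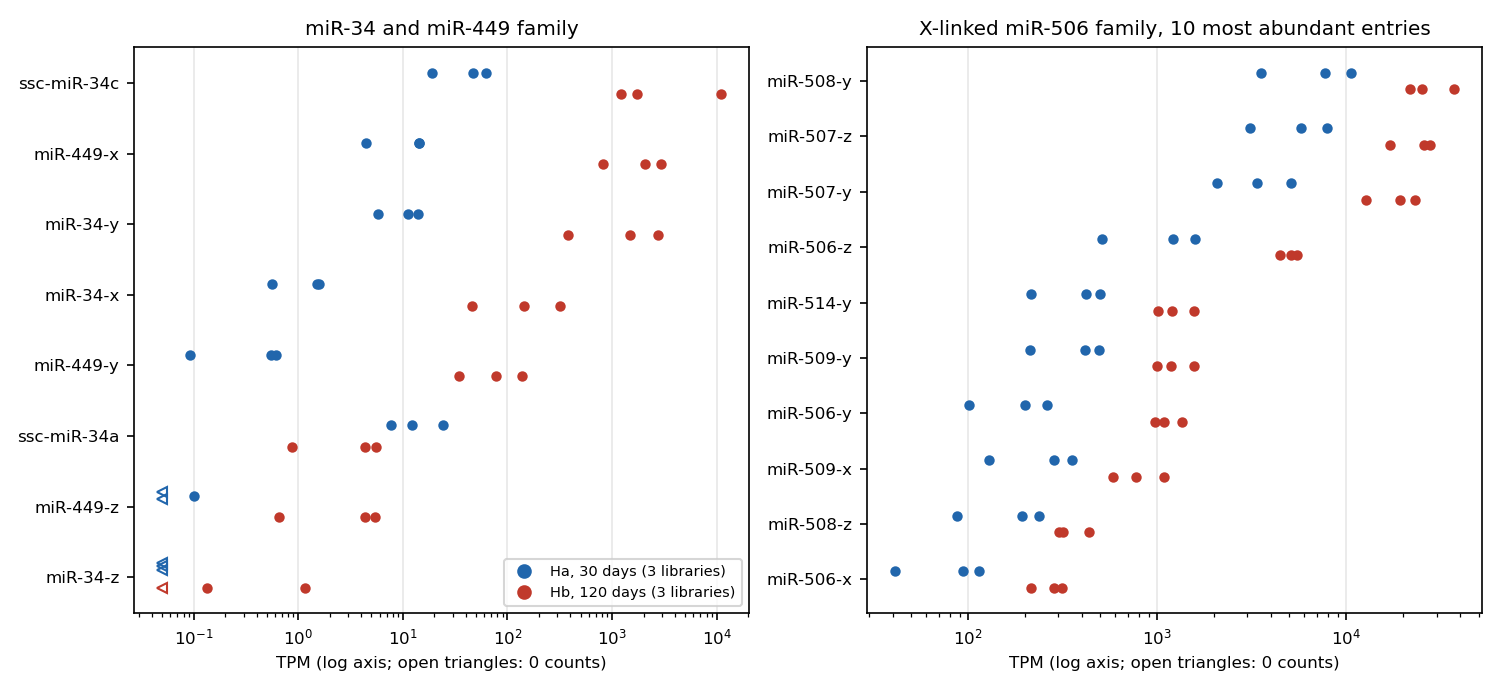
Levels in TPM (log axis) of the miR-34 and miR-449 entries (left) and of the 10 most abundant X-linked miR-506 family entries (right) in the 3 Ha (blue) and 3 Hb (red) libraries, where each point is a library and open triangles mark 0 counts. Hb libraries lie above Ha libraries for every entry shown except ssc-miR-34a, which lies below, and miR-34-z, where Hb2 has no count.

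The largest fitted rises were those of predicted miRNAs. The authors called these miRNAs from the reads of this series, and 1 count was enough for an entry to be tested. An entry with no count in Ha therefore could not fall, and an entry with no count in Hb could not rise. No count in Ha was found for 108 tested predicted miRNAs, and none in Hb for 27. Of the predicted miRNAs that rose, 68 of 105 had no count in any Ha library, and the counts of risers by length and position below include them. The largest fold bound among them was that of m0024-5p, at least 52.8-fold higher in Hb against a floor of 3 counts per library (0.286 TPM in Ha). m0004-3p, at chr1:196461691-196461746, stood at 1.29, 1.42 and 0.556 TPM in Ha and at 1866, 576 and 1602 TPM in Hb, a change of 10.29 ± 0.50. m0010-5p, at chr15:59938143-59938198, stood at 0.553, 0.609 and 0.278 TPM in Ha and at 702, 373 and 597 TPM in Hb, a change of 10.23 ± 0.41. All Hb libraries were far above the Ha libraries for both, with adjusted p of 3.97e-09 and 9.82e-10 in edgeR. The study also assayed m0010-5p by RT-qPCR and lists it as down-regulated, without naming the comparison in its text. m0008-3p changed by 10.31 (11.60 without Ha1), m0006-5p by 10.18 and m0025-5p, with no count in Ha, was at least 51.1-fold higher. m0008-3p and m0009-3p list the same sequence at different places of chromosome 15 and have the same counts.

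The predicted miRNAs that rose were short. Among them 61 of 105 (58.1%) were 18 to 20 bases long, against 35 of the other tested predicted miRNAs (15.8%) and 19 of 353 pig-named miRNAs (5.38%). Exactly 19 bases was the length of 69 tested predicted miRNAs, of which 50 rose, against 32.1% of all tested predicted miRNAs. Another 20 of the risers were 24 bases or longer, and the share of that length among the others was 16.2%. A first base of T, common in miRNAs, was found in 56.2% of the risers and 48.4% of the pig-named miRNAs. Whether the short or long entries derive from other RNA classes was not tested.

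Predicted hairpins also lay close together. In a grouping added after the data had been seen, with gaps of at most 25000 bases, 11 groups of 3 or more hairpins held 50 of the 332 predicted hairpins and 37 of the 105 risers. The group at chr15:59938143-59938711 held 3 hairpins on the minus strand, all with 19-base products, and its summed level was 1.38, 1.12 and 0.556 TPM in Ha and 1399, 839 and 1105 TPM in Hb. The group at chr7:30058024-30103414 held 9 hairpins, 5 on the plus and 4 on the minus strand. All 9 rose, and their sum went from 0.507 TPM or less in Ha to 111, 40.6 and 74.9 TPM in Hb. The group at chr5:66773070-66792209 held 6 hairpins that all rose, from at most 0.203 TPM in Ha to between 33.0 and 80.1 TPM in Hb. A group on the X chromosome was abundant at both ages. Its 5 hairpins at chrX:118943575-118947881 were on 1 strand with products of 21 to 23 bases. m0001-5p of this group stood at 1198, 1115 and 1203 TPM in Ha and at 2987, 2751 and 4125 TPM in Hb, and m0003-5p, assayed by RT-qPCR in the study, stood at 125.1, 140 and 130 TPM in Ha and at 681, 404 and 842 TPM in Hb. Both separated the ages, with changes of 1.63 ± 0.26 and 2.38 ± 0.28 (edgeR adjusted p = 0.000314 and 2.77e-05). m0002-3p, at chrX:119807711-119807769, rose from a mean of 491 to 2579 TPM.

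**Figure D2:**
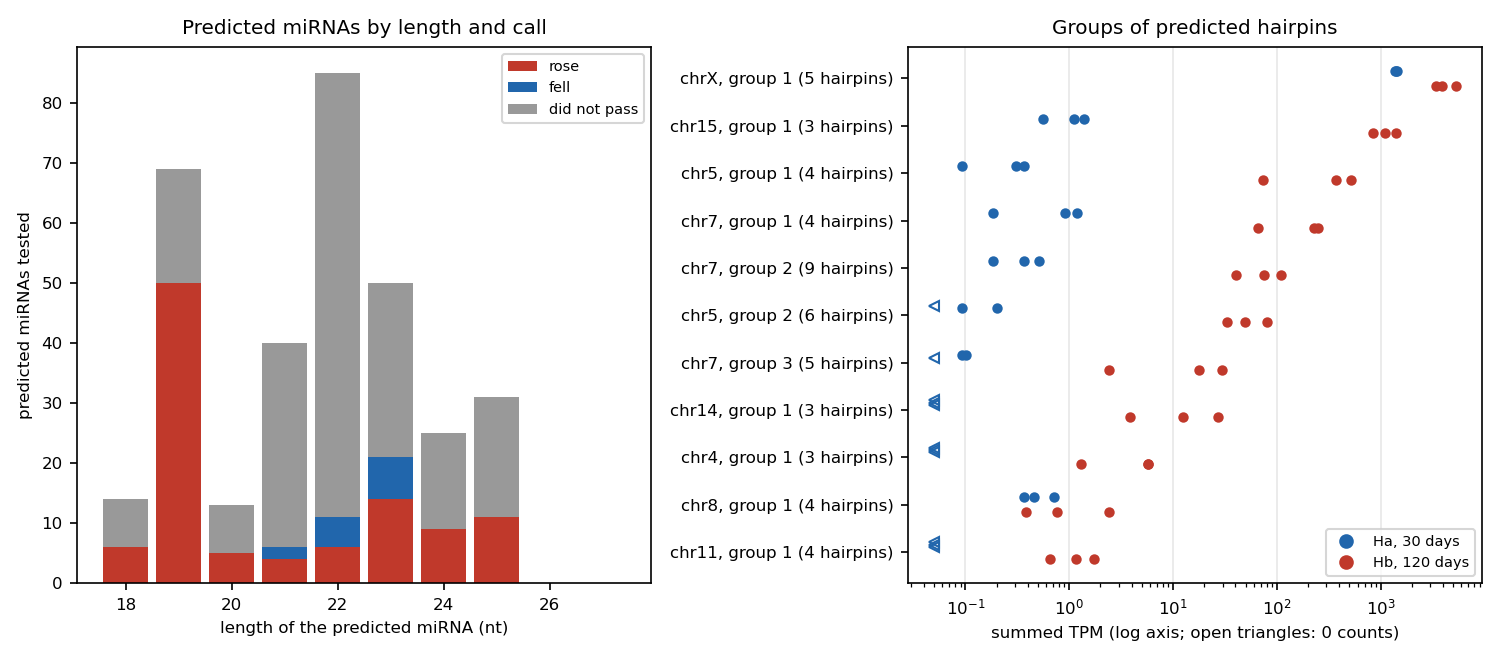
Number of tested predicted miRNAs by length in nt and by call (left, bars stacked from 0), and summed TPM (log axis) of the 11 groups of neighbouring predicted hairpins in the 3 Ha (blue) and 3 Hb (red) libraries (right, open triangles mark 0 counts). Of 69 predicted miRNAs of 19 bases 50 rose, and the chromosome 15 group went from at most 1.38 TPM to at least 839 TPM.

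The lowest median among the lists was that of the DLK1-DIO3 cluster, an imprinted locus whose miRNAs are made from the maternal allele and are typical of fetal and neonatal tissue. Of its 68 tested entries, 45 fell and none rose (0 in edgeR, in DESeq2 and at an unadjusted p under 0.05), against 13.0% fallers in the background, with a median change of -1.82. ssc-miR-127, at chr7:121709636-121709715, stood at 477, 431 and 282 TPM in Ha and at 132, 81.9 and 95.5 TPM in Hb. ssc-miR-381-3p stood at 314, 303 and 172 TPM in Ha and at 78.3, 33.9 and 68.0 TPM in Hb. Both were lower in every Hb library and fell by 1.84 ± 0.28 and 2.07 ± 0.31 on the log2 scale (edgeR adjusted p = 0.000227 and 0.000215). ssc-miR-370 fell by 2.80, miR-409-y by 3.24, miR-494-y by 2.56 and miR-656-y by 2.46. Larger fitted falls of the cluster, ssc-miR-493-3p with -5.72 and miR-127-z with -4.27, were at 4.52 TPM or less in every library. The summed level of the cluster went from 1465 ± 380 to 369 ± 146 TPM. Between 33 and 46 entries fell with single libraries left out.

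The X-linked cluster of miR-424, miR-503, miR-450 and miR-542, which includes regulators of the cell cycle, fell as well. Of 21 entries 16 fell and none rose (0 in edgeR, in DESeq2 and at an unadjusted p under 0.05), against 13.0% fallers over all miRNAs, with a median of -1.42. ssc-miR-450b-5p, at chrX:110381587-110381666, stood at 3244, 2693 and 3722 TPM in Ha and at 1122, 668 and 1069 TPM in Hb. ssc-miR-450c-5p stood at 2664, 2430 and 2743 TPM in Ha and at 834, 432 and 747 TPM in Hb. The Hb libraries were below the Ha libraries for both, and the changes were -1.66 ± 0.24 and -1.88 ± 0.24 (edgeR adjusted p = 0.000159 and 5.49e-05). ssc-miR-450c-5p and ssc-miR-450a (-1.57) differ in their last base, so their reads may be split between them. The summed level was 9842 ± 1075 TPM in Ha and 3145 ± 931 TPM in Hb. With Ha3 left out 10 entries fell, the lowest number over the left-out libraries.

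The neighbouring X-linked miR-363 and the miR-17-92 paralogues, which promote proliferation in many tissues, gave 9 falls and 1 rise among 38 entries, against 13.0% falls and 21.3% rises over all miRNAs. No entry rose without Ha1, Ha2, Ha3 or Hb3, 2 rose without Hb1 and 4 without Hb2. ssc-miR-92a, the most abundant, stood at 7741, 7010 and 9373 TPM in Ha and at 4196, 1834 and 4308 TPM in Hb, a change of -1.16 ± 0.26 (edgeR adjusted p = 0.00348). ssc-miR-363 stood at 634, 565 and 831 TPM in Ha and at 216, 125.4 and 253 TPM in Hb, a change of -1.68 ± 0.28. Both separated the ages. miR-93-y, at 53.2 TPM or less, changed by -2.36, while miR-25-y at 2058 TPM or more in every library did not pass (-0.45, adjusted p = 0.136). Without Ha3, 6 entries fell.

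In the miR-29 family, known for repressing collagens and DNA methyltransferases, 6 of 7 entries rose, against 21.3% of all miRNAs, with a median of 2.45. ssc-miR-29a-3p stood at 879, 780 and 861 TPM in Ha and at 2368, 3615 and 4261 TPM in Hb, and ssc-miR-29c stood at 43.6, 38.1 and 35.8 TPM in Ha and at 154, 285 and 268 TPM in Hb. The ages were separate, and the changes were 2.23 ± 0.32 and 2.82 ± 0.38 (edgeR adjusted p = 0.000159 and 8.65e-05). In the miR-183, miR-96 and miR-182 cluster, known from sensory cells and germ cells, 5 of 9 entries rose. ssc-miR-183 went from 213, 214 and 217 TPM in Ha to 779, 672 and 540 TPM in Hb, a change of 1.78 ± 0.27. In the list of miR-15, miR-16, miR-195 and miR-497, known for targeting cyclins, 5 of 14 rose, again beside 21.3% over all miRNAs, led by miR-195-x at 2.22 and ssc-miR-497 at 2.15. The abundant ssc-miR-16 and ssc-miR-15b of that list had values of 0.53 and 0.10 and did not pass.

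Among the most abundant miRNAs, 8 of the 10 highest in Ha were also among the 10 highest in Hb. ssc-miR-26a led in Ha with 90665 ± 8192 TPM, and ssc-miR-99a-5p led in Hb with 99744 ± 39775 TPM. Neither passed the test, with changes of 0.33 and 0.48, and Hb2 was the highest library for both. ssc-miR-100, which differs from ssc-miR-99a-5p outside the seed, rose by 1.78 ± 0.34 from 8654, 10232 and 10556 TPM to 23096, 39009 and 23669 TPM (edgeR adjusted p = 0.00136). ssc-miR-125a fell from 20322, 19368 and 24336 TPM to 12813, 4782 and 9930 TPM, a change of -1.17 ± 0.25 (edgeR adjusted p = 0.00236). The gene of ssc-miR-125a lies on chromosome 6 and that of ssc-miR-100 on chromosome 9. ssc-miR-125b had a value of -0.89 (adjusted p = 0.0128), with an adjusted p of 0.101 without Ha1 and 0.061 without Ha3. In the list of miR-99, miR-100 and miR-125, 1 of 15 entries rose and 4 fell, against 21.3% and 13.0% of all miRNAs. The number that rose was 4 without Hb1 and 2 without Hb2, and the number that fell was 2 without Ha1 or Ha2 and 7 without Hb2. The summed level of the list was 170570 ± 8565 TPM in Ha and 168710 ± 36488 TPM in Hb.

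The let-7 family, which promotes differentiation in many cell types, was listed with 16 entries, of which none rose (0 in edgeR and DESeq2, 1 at an unadjusted p under 0.05) and 4 fell, against 13.0% over all miRNAs. With RLE scaling 1 fell, with scaling by library size or the replicate block 2 fell, and 1 entry rose with stricter filtering or without Hb1. ssc-let-7f-5p went from 47136, 46521 and 47044 TPM in Ha to 30426, 18159 and 23554 TPM in Hb, a change of -0.87 ± 0.21 (edgeR adjusted p = 0.00538). The groups were separate, but without Ha1 the value was -0.84 with an adjusted p of 0.121, and no let-7 entry fell without Ha1. Only 1 fell without Ha2, Ha3 or Hb3. ssc-let-7a, at 27559 TPM or more in every library, had a value of -0.25 and did not pass. Counts in the other broadly expressed lists are to be read against 21.3% rises and 13.0% falls over all miRNAs, and the falls in the next lists, miR-30 with 15.4% and miR-23, miR-24 and miR-27 with 11.8%, were near that share. In the miR-30 list, active in many epithelia, 2 of 13 fell and none fell without Ha1, Ha2 or Ha3, and in the list of miR-23, miR-24 and miR-27 2 of 17 fell, namely miR-23-z and miR-23-y with -1.96 and -1.28. Without Hb1, 1 entry of the miR-30 list, 2 of the miR-23, miR-24 and miR-27 list and 2 of the miR-181 list rose. In the miR-181 list 2 of 7 fell, ssc-miR-181b with -1.06 and ssc-miR-181a with -0.86, and without Ha1 the value of ssc-miR-181a was -0.86 with an adjusted p of 0.10. In the miR-26 list 2 of 6 rose, with miR-26-z at 1.70, and only 1 rose without Ha1, Ha2 or Ha3. HOX-embedded miRNAs, whose genes lie between the body-axis genes, had 5 falls among 11. ssc-miR-10a-5p went from 2185, 2472 and 1397 TPM to 810, 745 and 353 TPM, a change of -1.50 ± 0.36, while the far more abundant ssc-miR-10b was at 0.04. The HOX count was 8 without Hb2. In the list of miR-101, miR-148 and miR-152, 3 rose and 1 fell among 15, with 1 rise without Ha2, 5 without Hb1, no fall without Ha2 or Hb3 and 2 falls without Hb2. In the miR-193 and miR-365 list 4 rose and 1 fell among 8, with no rise without Ha1 or Ha3, 1 without Hb3, 2 without Ha2 and no fall without Ha2. A list of other imprinted miRNAs, among them miR-335, had 1 fall among 10, and 2 entries of it rose without Hb2.

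**Figure D3:**
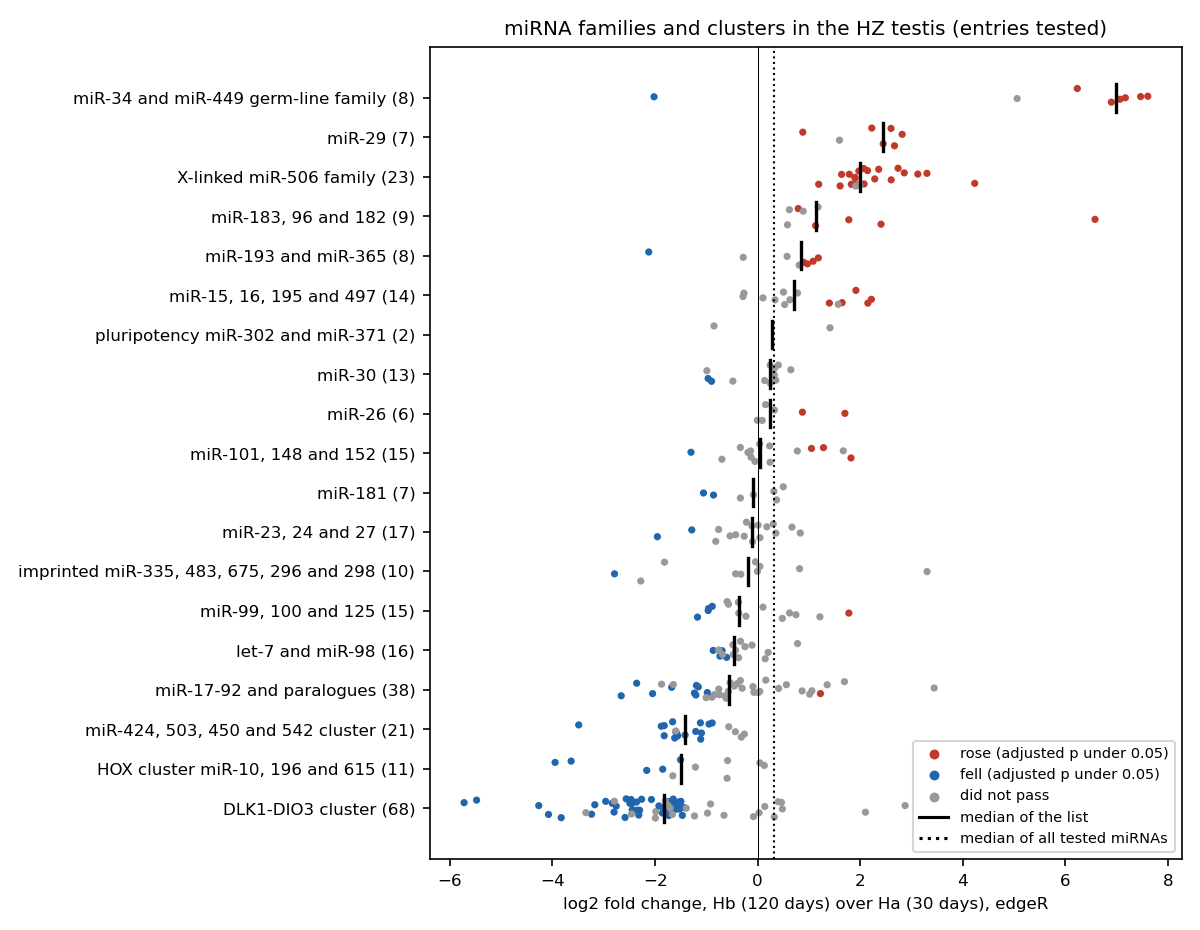
Log2 fold change of Hb over Ha (edgeR) for every tested entry of each miRNA family or cluster, 1 point per entry, red where it rose, blue where it fell and grey where it did not pass, with a black tick at the median of the list and a dotted line at the median of all tested miRNAs (0.32). The miR-34 and miR-449 family lies highest with a median of 6.98 and the DLK1-DIO3 cluster lowest with -1.82.

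Single miRNAs outside these families also separated the ages. ssc-miR-375, known from endocrine cells, rose from 9.31, 9.64 and 11.0 TPM in Ha to 364, 133 and 299 TPM in Hb, a change of 4.77 ± 0.33 (edgeR adjusted p = 1.70e-07). ssc-miR-190b rose from 0.461, 0.609 and 1.20 TPM to 21.1, 5.34 and 11.8 TPM, a change of 4.05 ± 0.50. For both Hb2 was the lowest of the Hb libraries but stayed above every Ha library. ssc-miR-9, best known from the brain, rose by 3.32 ± 0.34 from 24.9, 24.3 and 25.7 TPM to 381, 97.2 and 266 TPM, and its entries ssc-miR-9-1 and ssc-miR-9-2 list sequences of 1 more base and share its reads. miR-383-x, which the study assayed by RT-qPCR, rose by 3.24 ± 0.36 from 13.5, 10.2 and 12.3 TPM to 156, 44.5 and 135 TPM. Another assayed miRNA, ssc-miR-217, known from the pancreas, stood at 6.73, 17.3 and 8.61 TPM in Ha and at 29.9, 12.1 and 60.1 TPM in Hb. Its groups overlapped through Hb2, and the rise of 1.70 ± 0.50 (edgeR adjusted p = 0.0171) became 0.97 without Hb3 (adjusted p = 0.117) and 1.55 without Ha3 (adjusted p = 0.061).

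Of the 5 largest falls among pig-named miRNAs that averaged 10 TPM or more at either age, 4 lay outside the DLK1-DIO3 cluster. ssc-miR-149, assayed by RT-qPCR in the study and located at chr15:139474769-139474844, went from 825, 552 and 1047 TPM in Ha to 166, 69.7 and 119 TPM in Hb, a change of -2.71 ± 0.30 (edgeR adjusted p = 1.66e-05). Larger fitted falls below that level, such as those of ssc-miR-7139-3p and ssc-miR-187 (-4.07 and -3.53), rest on few counts in Hb. ssc-miR-615, embedded in a HOX cluster, went from 11.0, 10.4 and 15.2 TPM to 2.69, 0 and 0.386 TPM, a change of -3.64 ± 0.69. The Hb libraries held 20, 0 and 3 counts of ssc-miR-615, and without Hb1 the value was -5.61. ssc-miR-7138-5p and ssc-miR-7139-5p, which are annotated in pig with no well-described function, changed by -3.16 and -2.93. ssc-miR-149, ssc-miR-615, ssc-miR-7138-5p and ssc-miR-7139-5p were lower in every Hb library than in every Ha library. Among the other classes, miR-708-x changed by -2.38 and m0033-5p by -2.37, the latter from a hairpin inside RPL7A at chr1:272963406-272963473. miR-708-x differs from ssc-miR-708-5p at the 3′ end and amounted to 5.09% or less of it in every library. ssc-miR-708-5p itself had a value of -0.64 and did not pass.

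For lists of miRNAs that mark cell types, the counts of called members are read against 21.3% rises and 13.0% falls in all miRNAs. The miR-202 list, expressed in Sertoli cells and the gonad, had 3 falls among 5 entries. ssc-miR-202-5p, its main form, stood at 20407, 17522 and 18320 TPM in Ha and at 16604, 9077 and 15627 TPM in Hb and did not pass (-0.36, adjusted p = 0.217), while ssc-miR-202-3p had a value of -0.86 (adjusted p = 0.0158) that became -0.77 without Ha1 (adjusted p = 0.132), -0.84 without Ha3 (adjusted p = 0.055) and -0.60 without Hb1 (adjusted p = 0.06). Only 1 entry of this list fell without Ha1, Ha3 or Hb1. The miR-132 and miR-212 list, tied to steroid-producing cells and gonadotropin signalling, had 4 rises among 6, from a sum of 29.0 ± 1.78 to 83.6 ± 35.02 TPM. ssc-miR-132 rose by 1.55 ± 0.35 from 7.28, 7.10 and 6.95 TPM to 28.3, 9.27 and 23.7 TPM, and 2 entries of the list rose without Ha1.

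The mesenchymal miR-199 and miR-214 list summed to 76420 ± 1518 TPM in Ha and 37137 ± 6032 TPM in Hb, with 4 falls among 12 and no rise (0 in edgeR, in DESeq2 and at an unadjusted p under 0.05). ssc-miR-199b-5p went from 4158.5, 3581 and 3915 TPM to 1616, 519 and 814 TPM, a change of -1.96 ± 0.27 (edgeR adjusted p = 0.000114). ssc-miR-199a-5p, at 31809 TPM or less in Hb and 55661 TPM or more in Ha, had a value of -0.97 (adjusted p = 0.00296), and -0.93 without Ha1 (adjusted p = 0.087). Without Ha1 2 of the 12 fell, and without Hb2 7 fell. The smooth muscle and peritubular miR-143 and miR-145 list went the other way with 6 rises among 9. ssc-miR-143-3p rose from 22407, 27212 and 15163 TPM to 45480, 68402 and 74315 TPM, a change of 1.74 ± 0.33 (edgeR adjusted p = 0.00134), and became the third most abundant miRNA of Hb. Only 4 of these entries rose without Ha3.

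For the miR-21, miR-221 and miR-222 list, which marks spermatogonia among other cells, 2 rose and 3 fell among 14. ssc-miR-21-5p did not pass (-0.58, adjusted p = 0.0552), and the fall of ssc-miR-21-3p, -1.20 with an adjusted p of 0.0168, became -1.16 without Ha2 (adjusted p = 0.066). Over single libraries left out, between 0 (without Ha2) and 6 (without Hb1) entries of this list fell, with 1 without Ha1, and 1 to 4 rose, with 1 without Ha1 or Ha2 and 4 without Hb1. The lists for vessels, blood and other tissues were all detected. The endothelial miR-126 list summed to 14563 ± 1671 TPM in Ha and 11793 ± 456 TPM in Hb, and its main strands ssc-miR-126-3p and ssc-miR-126-5p did not pass. In it 1 of 4 entries rose, none without Ha2, Ha3 or Hb3 and 2 without Hb1, and 1 fell without Hb2. The erythroid list was 1554 ± 206 and 1396 ± 786 TPM, with 1 fall among 10 that was lost without Ha2 and became 2 without Hb1. The leukocyte list was 2001 ± 81.2 and 1716 ± 272 TPM, with 1 rise and 5 falls among 16. The rise was lost without Ha2, Ha3 or Hb2. The falls were 2 without Hb3, 3 without Ha2 and 8 without Hb2. In the striated muscle list 5 of 17 entries rose, 1 fell without Hb1, and the list summed to 318 ± 84.7 TPM in Ha and 680 ± 170 TPM in Hb. ssc-miR-1 of this list stood at 149, 186 and 76.3 TPM in Ha and at 386, 347 and 521 TPM in Hb. Epithelial and neural lists had 3 of 15 and 9 of 21 rises, with 5 epithelial rises without Hb2 and 2 without Ha3, and 4 epithelial entries fell without Hb1 and 1 without Ha1. The epithelial sums overlapped between ages, with 328 to 1049 TPM in Hb and 344 to 391.9 TPM in Ha, and miR-203-y with a change of 1.87 was the most abundant of that list. In the neural list ssc-miR-9 entries moved, whereas ssc-miR-124a had a value of -0.01. ssc-miR-137 was the 1 neural entry that fell, with -2.07 (edgeR adjusted p = 0.000777), and 2 neural entries fell without Hb1 or Hb2. The part of these cells in the changes described above was not tested.

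**Figure D4:**
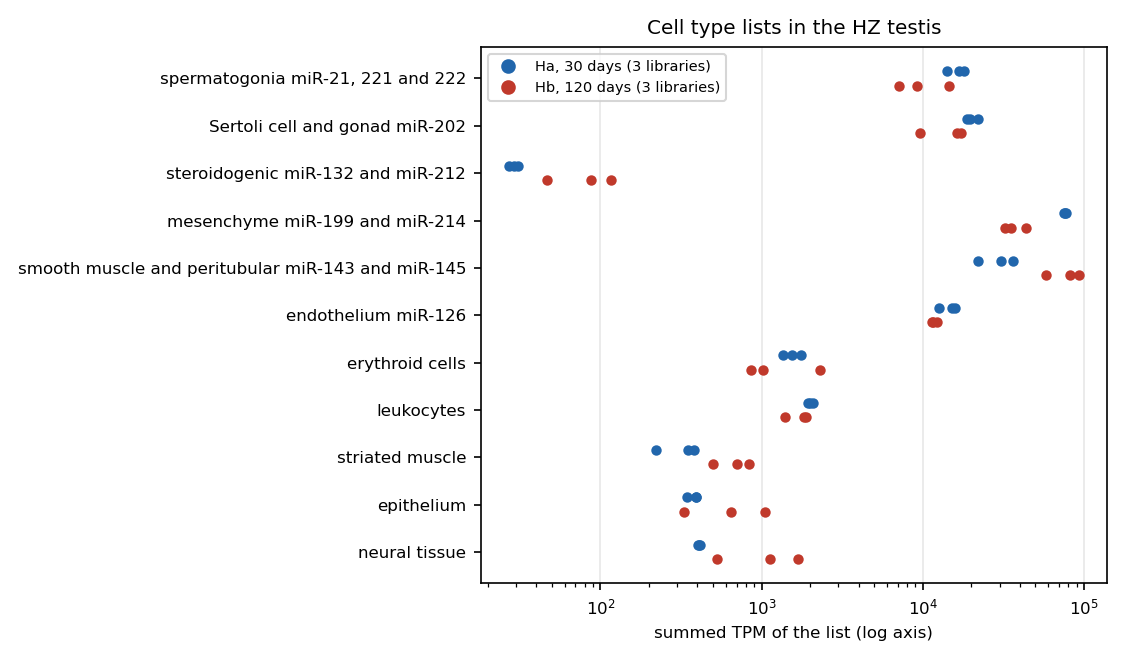
Summed TPM (log axis) of each cell type list in the 3 Ha (blue) and 3 Hb (red) libraries, 1 point per library. The miR-199 and miR-214 list lies lower in all Hb libraries (32285 to 43890 TPM) than in all Ha libraries (74848 to 77877 TPM), and the miR-143 and miR-145 list lies higher.

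The 2 arms of a hairpin were compared as the log2 ratio of 5p to 3p counts in 67 pig-named hairpins with both arms measured. None of the ratios passed at an adjusted p under 0.05 (0.0% of 67, limma), and 15 had an unadjusted p under 0.05. The 5p arm was the more abundant in 41 hairpins in Ha and in 46 in Hb by the mean of the libraries. The lowest p was that of ssc-miR-1306, for which the 5p arm made up 88.4%, 87.4% and 86.6% of the arm counts in Ha and 73.7%, 41.5% and 68.3% in Hb. All Hb libraries were lower, with Hb2 lowest, and the ratio changed by -2.09 ± 0.49 on the log2 scale (limma adjusted p = 0.16). For ssc-miR-221 the 5p share was 28.9%, 33.2% and 31.4% in Ha and 36.6%, 74.6% and 58.9% in Hb (limma adjusted p = 0.16). Without Hb1, 7 hairpins passed, among them ssc-miR-1306, ssc-miR-199b and ssc-miR-221 with adjusted p of 0.017, 0.015 and 0.012, and without Hb2 3 passed.

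Many known entries repeat a pig-named miRNA with a different 3′ end, so the ratio of such a variant to its pig-named form was tested for 133 pairs that share at least 17 bases from the 5′ end. This comparison was added after the data had been seen. The ratio rose in 8 pairs (6.02%) and fell in 8 (6.02%, limma). The variants were sorted by the bases that follow the shared 5′ part. Of 44 variants where these bases are A only, 31 had a higher ratio in Hb, with a median change of 0.49 and 4 rises against 1 fall. Many of the 44 also lack 3′ bases of the pig-named form, such as miR-145-x (6 bases), miR-222-y (4) and miR-365-y (1). Such entries are not the full form with A added. Of 19 variants where these bases are T only, 6 had a higher ratio, with a median of -0.19, and of the 70 others 33, with a median of -0.11. Whether the differing 3′ bases are encoded in the genome was not tested.

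The pairs below show a rise and a fall, with the seed in capitals. The first pair gains A and the second gains CT at the 3′ end.
ssc-miR-17-5p: cAAAGTGCttacagtgcaggtag
miR-17-x: cAAAGTGCttacagtgcaggtagaa
ssc-miR-23b: aTCACATTgccagggattacca
miR-23-z: aTCACATTgccagggattaccact

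miR-17-x amounted to 0.522%, 0.476% and 0.315% of ssc-miR-17-5p in Ha and to 1.31%, 1.12% and 1.5005% in Hb, a ratio change of 1.58 ± 0.26 (limma adjusted p = 0.018). miR-23-z amounted to 47.6%, 39.3% and 48.0% of ssc-miR-23b in Ha and to 22.8%, 5.53% and 8.77% in Hb, a ratio change of -2.11 ± 0.49 (limma adjusted p = 0.035). The ages were separate for both. No pair passed when Ha1, Ha2 or Ha3 was left out, 38 passed without Hb1 and 4 without Hb3.

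The same ages were compared in LC boars to ask whether the change with age differed between breeds, with the interaction fitted over all 12 libraries. The HZ log2 fold change minus the LC one was above 0 for 9 of 1452 miRNAs (0.62%) and below 0 for 11 (0.758%) at an adjusted p under 0.05. No member of the miR-34 and miR-449 or miR-506 families was among them. The median change of the former family was 6.98 in HZ and 8.36 in LC boars, and that of the latter 1.99 and 3.11. For the DLK1-DIO3 cluster the median was -1.82 in HZ and -0.46 in LC boars. Fitted over all 12 libraries, 48 of its 68 entries fell in HZ boars, against 16.7% of all miRNAs, and 4 fell in LC boars, against 9.92% of all miRNAs. The difference passed for miR-409-y and miR-380-y.

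miR-409-y stood at 61.1, 42.4 and 32.5 TPM in Ha and at 10.2, 1.09 and 3.60 TPM in Hb, against 22.4, 19.5 and 16.8 TPM in La and 33.0, 12.2 and 30.9 TPM in Lb. The HZ libraries separated the ages and the LC libraries did not, and the difference of the changes was -3.37 ± 0.64 (edgeR adjusted p = 0.0324). The difference was below 0 for 766 of all 1452 miRNAs, for 21 of 21 entries of the miR-424 and miR-450 cluster, 23 of 23 of the miR-506 family and 63 of 68 of the DLK1-DIO3 cluster. Other lists lay the other way, with 0 of 6 entries below 0 for miR-26, 1 of 7 for miR-29 and 2 of 14 for miR-15, miR-16, miR-195 and miR-497. Entries of a list share the same 12 libraries and are not independent, so these counts do not test a list. In the miR-424 and miR-450 cluster ssc-miR-450a, ssc-miR-450b-5p and ssc-miR-450c-5p passed, with differences of -0.99, -1.31 and -1.15. ssc-miR-29a-3p rose more in HZ, since La stood at 726, 954 and 859 TPM and Lb at 1476, 1293 and 1478 TPM, and the difference was 1.73 ± 0.37 (edgeR adjusted p = 0.0377). ssc-miR-137, a neuronal miRNA, stood at 12.0, 15.4 and 17.1 TPM in Ha and at 4.58, 2.84 and 2.45 TPM in Hb, against 16.5 to 19.6 TPM in La and 15.2 to 21.2 TPM in Lb, a difference of -1.80. m0021-3p on the X chromosome had 6.02 to 10.8 TPM in Ha and 21.7 to 33.1 TPM in Hb but at most 2.003 TPM in LC, a difference of 2.52. The number of such differences depended on single libraries, with 168 without Hb1, 34 without Lb2, 12 without Hb3, 5 without Ha1, 4 without La1 or Lb3, 2 without Ha2 or La2, and 0 without La3 or Lb1.

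**Figure D5:**
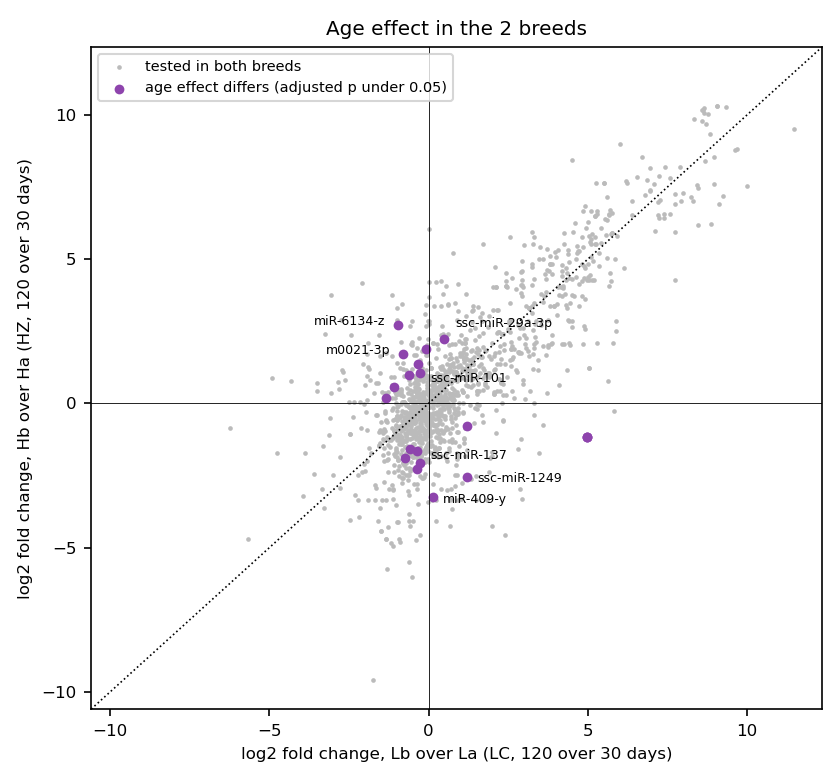
Log2 fold change of 120 over 30 days in HZ boars (vertical axis, Hb over Ha) against that in LC boars (horizontal axis, Lb over La), 1 point per miRNA tested in both, with the 20 miRNAs whose change differed between breeds in purple and a dotted line of equal change. ssc-miR-29a-3p lies above the line with a difference of 1.73 and miR-409-y below it with -3.37.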

How the data were processed

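The authors sequenced size-selected small RNA of 12 testis libraries and filtered the reads, removed tags of other RNA classes, exons, introns and repeats, and matched the rest to miRBase and to hairpins predicted with miRDeep2. The deposited count values are whole tag counts per miRNA, and the deposited TPM values are counts scaled to a library total, with 0.01 for a count of 0, read here as 0. The deposited hairpin table also gives a GC percent and a miRDeep2 score per predicted hairpin, which the authors computed and which support no result here. Totals of listed counts were 6520197 to 9625398, and 3 counts equalled 0.277 to 0.404 TPM.

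Ha and Hb were compared with edgeR 4.0.16 (TMM, quasi-likelihood F test, Benjamini-Hochberg over 1441 miRNAs with 1 count or more), and DESeq2 1.42.0 served as an alternative. Breeds were compared by an interaction term. Ratios of arms and of 3′ variants used limma 3.58.1 on log2 ratios with a pseudocount of 1 and a mean of at least 10 counts per form. In simulated data 95.5% of changes of 2 (log2) were recovered for Ha vs. Hb and 12.0% of changes of 1, 69.0% for the interaction and 26.7% for the arms. The rule for named miRNAs took those with an adjusted p under 0.05, a mean of at least 10 TPM at an age and no overlap: the 5 largest rises and 5 largest falls of pig-named and of other miRNAs. It added the 2 most abundant and 2 most changed of each list, the 5 largest breed differences each way and 5 of the 10 miRNAs assayed by RT-qPCR. The text of the study does not name the comparison of each assay. It lists miR-409-y as up-regulated and miR-29-y and m0010-5p as down-regulated, opposite to the changes from Ha to Hb here (-3.24, 2.67 and 10.23). Without the comparison, these directions cannot be set against each other. Other members of a listed family are named as examples, chosen with their values seen. Members, lists and tests were chosen with earlier results of these data known. Replicate numbers did not pair the libraries. Positions are Sscrofa11.1, from RefSeq (300 of 353 pig-named miRNAs matched) or, for predicted hairpins, as deposited, where the bounds span 1 base more than the listed hairpin.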

Additional observations from a re-analysis of the deposited data

Results flagged for a closer look

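The change with age differed between breeds for 20 miRNAs, tested by the interaction term over all 12 libraries in edgeR, and each is given as the HZ log2 fold change minus the LC one. Larger values in HZ boars were found for miR-6134-z (3.70, at 1.75 TPM or less in every library), m0021-3p (2.52), miR-2478-z (1.97), ssc-miR-29a-3p (1.73), ssc-miR-628-3p (1.71), miR-11202-x (1.65), miR-126-y (1.59), miR-6519-z (1.505) and ssc-miR-101 (1.32). Smaller values were found for m0252-5p, m0253-5p and m0254-5p (-6.14 each, since the 3 entries list 1 sequence, at 0.833 TPM or less), ssc-miR-1249 (-3.77), miR-409-y (-3.37), miR-216-x (-1.97), miR-380-y (-1.91), ssc-miR-137 (-1.80), ssc-miR-450b-5p (-1.31), ssc-miR-450c-5p (-1.15) and ssc-miR-450a (-0.99). The value of m0252-5p, m0253-5p and m0254-5p is fitted against La libraries that all had 0 counts, so it does not measure the size of a difference. miR-11202-x lists the same sequence as miR-2779-z and miR-7550-x. Their adjusted p lay between 0.015 and 0.048, and with single libraries left out the highest adjusted p of each was 0.088 or more, while none of the differences changed sign. Breed cannot be told apart from anything else that differed between the HZ and LC boars.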

How the results depend on the processing

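The numbers of miRNAs that rose (307) and fell (187) from Ha to Hb stayed within 1.5 times under DESeq2, other scalings, stricter filtering, the fit of all 12 libraries, merged sequences, the thresholds of the study and the replicate block (224 and 159), while the number that fell ranged from 119 to 210 with single libraries left out (119 without Ha2, 123 without Ha1). The replicate numbers did not pair the libraries, since same-numbered libraries correlated by 0.0128, 0.0151 and -0.0824, and with the block ssc-miR-34a, miR-101-y, miR-193-y, miR-202-x, miR-126-y, ssc-miR-146a-5p, ssc-miR-1249 and ssc-miR-217 no longer passed. The difference between breeds, 20 miRNAs, became 36 with RLE scaling, 0 with scaling by library size and 63 with stricter filtering, was 20 with the replicate block, and ranged from 0 to 168 with single libraries left out. The arm ratios, 0 hairpins, ranged from 0 to 7. The ratios of 3′ variants, 16 pairs, became 0 with the replicate block and ranged from 0 to 38. Among the named miRNAs, signs changed only for some that had not passed the test. These were ssc-miR-296-3p (0.011 with stricter filtering), ssc-miR-335 (-0.024 with scaling by library size), ssc-miR-10b (-0.13 with scaling by library size and -0.022 with the replicate block), ssc-miR-126-5p (-0.094 with scaling by library size) and ssc-miR-124a (0.030 with RLE scaling and with DESeq2, 0.048 with stricter filtering). With single libraries left out, values ranged from -0.066 to 0.083 for ssc-miR-296-3p, -0.027 to 0.16 for ssc-miR-335, -0.20 to 0.91 for ssc-miR-99a-5p, -0.30 to 0.31 for ssc-miR-10b, -0.46 to 0.024 for ssc-miR-27b-3p, -0.086 to 0.72 for ssc-miR-26a, -0.45 to 0.16 for ssc-miR-148a-3p, -0.17 to 0.39 for ssc-miR-126-5p, -0.15 to 0.46 for ssc-miR-499-5p and -0.051 to 0.10 for ssc-miR-124a. The cause was not tested. Depth limits the entries near the floor, where 3 counts equalled between 0.277 TPM (Ha1) and 0.404 TPM (Hb1), depending on the library.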
